A study of Mus musculus with 3 samples.

Results

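The miR-99, miR-100 and miR-125 families were represented by 9 of the 1138 mature miRNAs listed for the tibialis anterior (TA), a leg muscle that lifts the foot. The 9 were chosen by name, as 4 members of the miR-99/100 family and 5 members of the miR-125 family, and all 9 were listed in each library. Small RNAs of 18 to 30 nucleotides were sequenced from wild-type (WT) C57BL/6 mice, labelled as 10 weeks old. There were 3 groups, day 0, day 1 and day 3 after cardiotoxin (CTX) was injected into the muscle. CTX comes from snake venom and kills myofibers. The study describes day 0 as uninjured muscle, and the labels name saline as the control injection without saying whether day 0 muscles received it. For each group, 4 samples were pooled into 1 library, so that there were no replicates, no test between days was possible, and differences between mice could not be seen.

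miR-99a, miR-99b and miR-100 share a seed, the bases near the 5′ end with which a miRNA pairs to its targets, and are known for repressing components of insulin-like growth factor and mTOR signaling. miR-125a and miR-125b are the vertebrate relatives of worm lin-4, a miRNA that controls developmental timing. miR-125b is known to restrain myoblast differentiation through Igf2, and the family also acts in blood cell development and inflammatory signaling. In vertebrates these miRNAs lie in clusters that pair a miR-99/100 hairpin and a miR-125 hairpin with a let-7 hairpin. Each hairpin can give a 5p and a 3p mature miRNA, of which one arm is usually far more abundant.

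The sequences of the 5p members show the shared seeds, and those of the 3p members show which hairpin each came from. RefSeq, on build GRCm38.p6, held a mature sequence for all 9. They are written 5′ to 3′ with the seed (bases 2 to 8) in capitals, first the miR-99/100 5p members:
miR-99a-5p: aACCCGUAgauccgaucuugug
miR-100-5p: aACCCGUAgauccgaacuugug
miR-99b-5p: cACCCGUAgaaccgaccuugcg
and then the miR-125 5p members, with miR-351-5p as the other listed miRNA of that seed:
miR-125b-5p: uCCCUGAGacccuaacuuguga
miR-125a-5p: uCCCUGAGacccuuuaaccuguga
miR-351-5p: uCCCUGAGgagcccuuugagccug
and last the 3p members:
miR-99b-3p: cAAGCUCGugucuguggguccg
miR-125a-3p: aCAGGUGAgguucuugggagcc
miR-125b-1-3p: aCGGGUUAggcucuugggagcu
miR-125b-2-3p: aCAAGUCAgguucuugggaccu

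The seed ACCCGUA was carried by 3 listed miRNAs, all of them members, and the seed CCCUGAG by 3, of which miR-351-5p is no member. miR-99a-5p and miR-100-5p differ at 1 of 22 bases, U16A counted from the 5′ end, so that a read with a mismatch at that base could be given to either. How the authors assigned such reads is not stated in the sources used here. miR-99b-5p differs from miR-99a-5p at 4 bases (A1C, U11A, U16C and U21C). miR-125a-5p and miR-125b-5p share their first 13 bases and their last 5. The 3p arms of the 2 miR-125b hairpins differ at 5 bases (G3A, G4A, U7C, C11U and G20C, miR-125b-1-3p first) and could be counted apart, whereas miR-125b-5p has the same sequence in both hairpins.

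The members lie in 3 clusters on the plus strand of GRCm38.p6. On chromosome 16, Mir99a (miR-99a-5p at chr16:77598940-77598961) and Mir125b-2 (miR-125b-2-3p at chr16:77646318-77646339) lie in introns of the noncoding gene Mir99ahg, with Mirlet7c-1 between them, and Mir99a also lies in an intron of the protein-coding gene Gm11146 on the opposite strand. On chromosome 9, Mir100 (miR-100-5p at chr9:41531437-41531458) and Mir125b-1 (miR-125b-1-3p at chr9:41581980-41582001) lie in introns of the noncoding gene 3110039I08Rik, with Mirlet7a-2 between them. Mir100 also overlaps an exon of Gm48742 on the opposite strand, and Mir125b-1 an exon of the noncoding transcript Gm28119 on the same strand. On chromosome 17, Mir99b (miR-99b-5p at chr17:17830194-17830215), Mirlet7e and Mir125a (miR-125a-5p at chr17:17830817-17830840) lie within 0.683 kb in an intron of the protein-coding gene Spaca6. The clusters on chromosomes 16 and 9 span 47.4 and 50.6 kb.

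Read totals were 8507580, 6421056 and 9795076 for days 0, 1 and 3. Levels are given as CPM, the reads of a miRNA per 1000000 reads of its library, and a fold change is a ratio of CPM. Intervals are 95% intervals (Wilson for levels and shares, Wald for ratios and fold changes) and cover counting error only, not differences between mice. They treat each read as independent, although PCR copies of 1 molecule are not, so they may be too narrow even for counting error. The members are 22 to 24 nucleotides long, so that reads of different members could be compared without a length correction, although differences in adapter ligation between sequences were not corrected. CPM depends on the rest of the library. Among the 513 miRNAs with at least 30 reads over the 3 libraries, a set that holds all 9 members, the median was a log2 fold change of 1.20 for day 1 and of 1.44 for day 3. Other scalings shifted every log2 fold change by as much as -1.04 on day 1 and -1.12 on day 3. Fold changes are therefore read beside this median, and ratios between members of 1 library, which no scaling between libraries alters, are used where possible.

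The makeup of the tissue also differed between the libraries. The 7 miRNAs of a myofiber list, of which miR-208b-3p had 4, 1 and 10 reads, together held 27.4% of the reads in the day 0 library, 9.17% in the day 1 library and 27.8% in the day 3 library. Most of the day 3 sum was miR-206-3p, a miRNA of regenerating muscle, with 12384, 4781 and 180001 CPM. The mature muscle miRNAs miR-1a-3p (233587, 73841 and 88096 CPM) and miR-133a-3p (25869, 12222 and 7340 CPM) were below day 0 on both later days, whereas miR-133b-3p had 1240, 246.8 and 1644 CPM and was above day 0 on day 3. The list without miR-206-3p, a form chosen after its values were seen, held 26.2%, 8.69% and 9.75%. All 6 of a leukocyte list held 0.535%, 2.09% and 0.920%. Most of the day 0 sum was miR-150-5p, with 4733, 8307 and 3197 CPM, whereas miR-223-3p had 97.8, 7815 and 1896 CPM and miR-142a-3p 25.2, 1684 and 816.2 CPM. Without miR-150-5p, likewise left out after its values were seen, that list held 0.0621%, 1.26% and 0.600%. All 4 of a vascular list held 9.43%, 19.7% and 8.41%, all 3 of an erythroid list 0.715%, 2.53% and 1.26%, and all 3 of a stromal list 0.202%, 0.369% and 0.624%. No listed marker was at 0. The part of these cell types in the values below was not tested. In whole muscle, fewer cells of a type and less RNA per cell cannot be told apart.

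The miR-99/100 family was far more abundant than the miR-125 family in each library, and the gap between them was smaller after injury. For each read of the miR-125 family there were 34.2 reads of the miR-99/100 family (95% interval 33.4 to 34.9) in the day 0 library, 13.5 (13.3 to 13.7) in the day 1 library and 15.1 (14.8 to 15.3) in the day 3 library. The ratio on day 1 was 0.395 times that on day 0 (0.384 to 0.406), and the ratio on day 3 was 0.441 times that on day 0 (0.429 to 0.452). In the deposited expression the ratios were 19.6, 9.33 and 9.40, and in the reads without the most abundant member of each family they were 58.3, 15.8 and 14.4, again lower after injury. In the reads of all members, days 1 and 3 differed far less, by a factor of 1.12 (1.09 to 1.14).

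The miR-99/100 family held 33766 CPM in the day 0 library, 29547 CPM in the day 1 library and 27853 CPM in the day 3 library. Its log2 fold change was -0.19 (-0.20 to -0.18) on day 1 and -0.28 (-0.29 to -0.27) on day 3, and the difference from the median of all miRNAs tested was -1.39 and -1.72. It was below 0 under each alternative except the deposited expression values without scaling, which gave 0.020 on day 3. The miR-125 family held 988.1 CPM in the day 0 library, 2191 CPM in the day 1 library and 1850 CPM in the day 3 library. Its log2 fold change was 1.15 (1.11 to 1.19) on day 1 and 0.90 (0.87 to 0.94) on day 3, and the difference from that median was -0.05 and -0.54. On day 3 it turned to -0.022 under TMM factors and -0.21 under median-of-ratios factors. With TMM and median-of-ratios factors, the miR-99/100 family was at -1.14 and -1.23 on day 1 and at -1.20 and -1.40 on day 3, past 2-fold lower, and the miR-125 family was at 0.20 and 0.11 on day 1. The miR-125 family was thus close to the middle of all miRNAs on day 1 and the miR-99/100 family far under it, while the size of either change against day 0 depended on the scaling.

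**Figure D1:**
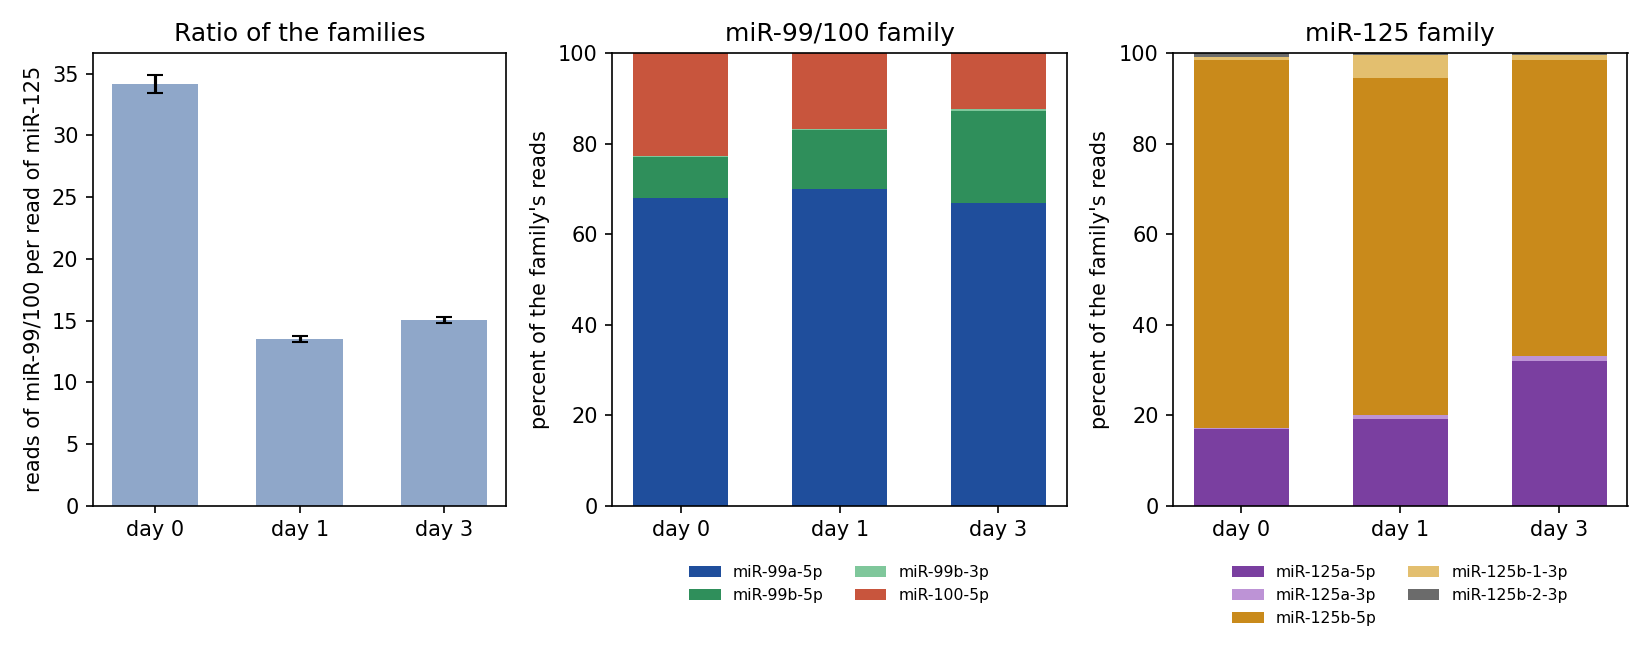
Left, reads of the miR-99/100 family for each read of the miR-125 family in the library of each day, with 95% Wald intervals. Middle and right, each member's percent of its family's reads. The ratio was 34.2 on day 0 and at most 15.1 after injury, miR-99b-5p took a larger part of its family by day 3 (20.4%), and miR-125a-5p took a larger part of its own (31.9%).

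Of the 9 members, 5 were at least 2-fold higher on day 1 than on day 0 and none was at least 2-fold lower (0 of 9). Among all 513 miRNAs, 53.8% were at least 2-fold higher and 10.9% at least 2-fold lower on day 1. On day 3, 4 members were at least 2-fold higher and 1 was at least 2-fold lower, where 57.3% of all miRNAs were higher and 10.3% lower. The shares among the members were close to these. The counts depended on the scaling. With TMM or median-of-ratios factors, 3 members were higher and 2 lower on day 1, and 2 were higher and 2 lower on day 3, where all miRNAs had 173 higher and 125 lower (TMM) or 162 and 134 (median-of-ratios) on day 1, and 202 and 118 or 183 and 131 on day 3. The median log2 fold change of the members was 1.02 on day 1 and 0.89 on day 3, and 4 of the 9 lay above the median of all miRNAs on each day. Between days 1 and 3 themselves, 1 member was at least 2-fold lower on day 3 and none (0) was at least 2-fold higher, beside 16.0% and 23.6% of all miRNAs. By arm, 3 of the 4 3p members and 2 of the 5 5p members were at least 2-fold higher on day 1, and on day 3 these counts were 3 and 1. The 3p arms miR-99a-3p and miR-100-3p are no members and went the other way on day 1. Their log2 fold changes were -1.03 and -1.32 on day 1 and 0.024 and -1.14 on day 3. Shares by arm over all miRNAs were not computed, so the split by arm describes the members only.

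**Figure D2:**
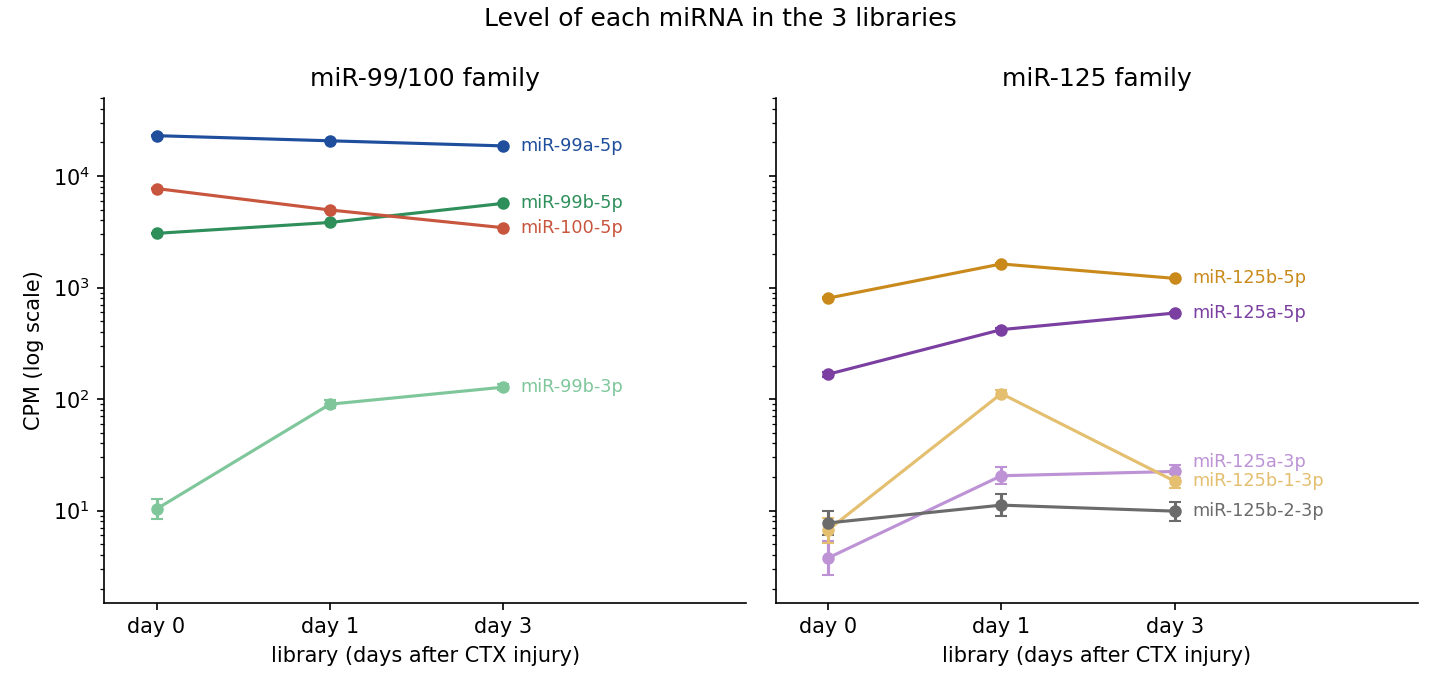
Level of each member in CPM, on a log scale, in the libraries of day 0, day 1 and day 3, with 95% Wilson intervals that are smaller than the points for abundant members. miR-100-5p and miR-99b-5p exchanged places, and miR-125b-1-3p was at 6.70 CPM in the day 0 library, 112.0 CPM in the day 1 library and 18.4 CPM in the day 3 library.

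mmu-miR-99a-5p was the most abundant member in each library, ranking 9 of all miRNAs in the day 0 library, 10 in the day 1 library and 14 in the day 3 library. Its reads numbered 195509, 132716 and 182233, or 22981, 20669 and 18605 CPM. It was highest on day 0 and lowest on day 3, with log2 fold changes of -0.15 (-0.16 to -0.14) on day 1 and -0.30 (-0.31 to -0.30) on day 3. The log2 fold changes became -1.10 and -1.23 with TMM factors and -1.19 and -1.42 with median-of-ratios factors, past 2-fold, and the deposited expression without scaling gave 0.0016 on day 3. Under total scaling they differed from the median of all miRNAs by -1.35 and -1.75. It made up 68.1% of the reads of its family in the day 0 library, 70.0% in the day 1 library and 66.8% in the day 3 library, so the family total followed it closely.

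mmu-miR-100-5p, which differs from miR-99a-5p at the single base given above, was the only member at least 2-fold lower in an injured library than on day 0 by CPM. Its reads numbered 65641 in the day 0 library, 31836 in the day 1 library and 33668 in the day 3 library, or 7716, 4958 and 3437 CPM. Both injured libraries were below day 0, with log2 fold changes of -0.64 (-0.66 to -0.62) on day 1 and -1.17 (-1.18 to -1.15) on day 3. It ranked 428 of 513 by fold change on day 1 and 467 on day 3. Its direction was the same under all 7 alternative scalings or values tried. The 2-fold call on day 3 held under 6 of 7, with -0.73 in the deposited expression without scaling. On day 1, 5 of 7 put it at least 2-fold lower.

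mmu-miR-99b-5p was higher in its share of the reads on each later day. It had 26030 reads in the day 0 library, 24596 in the day 1 library and 55665 in the day 3 library, or 3060, 3831 and 5683 CPM. The log2 fold change was 0.32 (0.30 to 0.35) on day 1 and 0.89 (0.87 to 0.91) on day 3, short of 2-fold and below the median of all miRNAs. Its direction depended on the scaling, being below 0 under 6 of 7 alternatives on day 1 and under 2 of 7 on day 3.

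Within a library, the order of miR-100-5p and miR-99b-5p was reversed. There were 2.52 reads of miR-100-5p for each read of miR-99b-5p (95% interval 2.49 to 2.56) in the day 0 library, 1.29 (1.27 to 1.32) in the day 1 library and 0.605 (0.597 to 0.613) in the day 3 library. On day 3 miR-99b-5p thus ranked second in its family, a place held by miR-100-5p on days 0 and 1. Over the same days miR-99a-5p moved from 2.98 reads for each read of miR-100-5p (2.95 to 3.00) to 4.17 (4.12 to 4.22) and 5.41 (5.35 to 5.48). In the deposited expression this ratio was 1.93, 2.86 and 3.21. miR-100-5p made up 22.9% of its family on day 0 and 12.3% on day 3, whereas miR-99b-5p made up 9.06% and 20.4%.

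mmu-miR-99b-3p, the minor arm of the same hairpin, had 88 reads in the day 0 library, 578 in the day 1 library and 1253 in the day 3 library, or 10.3, 90.0 and 127.9 CPM. Both injured libraries were several times above day 0, with log2 fold changes of 3.12 (2.80 to 3.45) on day 1 and 3.63 (3.32 to 3.94) on day 3. It ranked 90 and 93 of 513 by fold change, the highest position of the 9 members on day 3. Its direction was the same under all 7 alternatives, as was that of the 3p members miR-125a-3p and miR-125b-1-3p described next to their hairpins.

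mmu-miR-125b-5p, the main member of its family, had 6832 reads in the day 0 library, 10450 in the day 1 library and 11833 in the day 3 library, or 803.0, 1627 and 1208 CPM. It was highest on day 1 and lowest on day 0, with log2 fold changes of 1.02 (0.98 to 1.06) on day 1 and 0.59 (0.55 to 0.63) on day 3. The day 1 value sat at the 2-fold threshold, with a difference of -0.18 from the median of all miRNAs, and it was -0.023 under median-of-ratios factors. On day 3 it was below 0 under 3 of 7 alternatives.

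mmu-miR-125a-5p had 1419, 2694 and 5788 reads on days 0, 1 and 3, or 166.8, 419.6 and 590.9 CPM. It was higher on each later day, with log2 fold changes of 1.33 (1.24 to 1.42) on day 1 and 1.82 (1.74 to 1.91) on day 3, and its direction was the same under all 7 alternatives. The 2-fold call held under 1 of 7 alternatives on day 1, where the lowest value was 0.29, and under 5 of 7 on day 3, where it was 0.71. There were 4.81 reads of miR-125b-5p for each read of miR-125a-5p (4.55 to 5.10) in the day 0 library, 3.88 (3.72 to 4.05) in the day 1 library and 2.04 (1.98 to 2.11) in the day 3 library. miR-125a-5p thereby made up 16.9% of its family on day 0 and 31.9% on day 3. In both families the 5p member from the chromosome 17 cluster gained by day 3 on the 5p members from the other clusters.

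mmu-miR-125a-3p, the minor arm of the same hairpin, had 32 reads in the day 0 library, 132 in the day 1 library and 220 in the day 3 library, or 3.76, 20.6 and 22.5 CPM. Both injured libraries were above day 0 and the intervals of their levels overlapped each other. The log2 fold changes were 2.45 (1.89 to 3.01) and 2.58 (2.04 to 3.11).

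The 3p arms of the 2 miR-125b hairpins, whose sequences are given above, differed most from each other on day 1. mmu-miR-125b-1-3p, from chromosome 9, had 57 reads in the day 0 library, 719 in the day 1 library and 180 in the day 3 library, or 6.70, 112.0 and 18.4 CPM. Day 1 stood far above both other days, with a log2 fold change of 4.06 over day 0 (3.67 to 4.45), position 51 of 513, and the log2 fold change of day 3 against day 1 was -2.61 (-2.84 to -2.37). On day 3 it was still higher than on day 0 by a log2 fold change of 1.46 (1.03 to 1.89), which was at the median of all miRNAs (a difference of 0.014). This 2-fold call held under 3 of 7 alternatives, with 0.53 by TMM and 0.34 by median-of-ratios factors.

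mmu-miR-125b-2-3p, from chromosome 16, had 66 reads in the day 0 library, 72 in the day 1 library and 97 in the day 3 library, or 7.76, 11.2 and 9.90 CPM. The intervals of its level overlapped between the 3 libraries. It had log2 fold changes of 0.53 (0.05 to 1.01) on day 1 and 0.35 (-0.10 to 0.80) on day 3. The interval on day 3 includes 0, and its direction on either day depended on the scaling. For each read of miR-125b-2-3p there were 0.864 reads of miR-125b-1-3p (0.606 to 1.23) in the day 0 library, 9.99 (7.84 to 12.7) in the day 1 library and 1.86 (1.45 to 2.38) in the day 3 library. As a share of the reads of both 3p arms, miR-125b-1-3p held 46.3% (37.8% to 55.1%) in the day 0 library, 90.9% (88.7% to 92.7%) in the day 1 library and 65.0% (59.2% to 70.4%) in the day 3 library. The counts of the shared miR-125b-5p do not show from which hairpin its reads came.

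**Figure D3:**
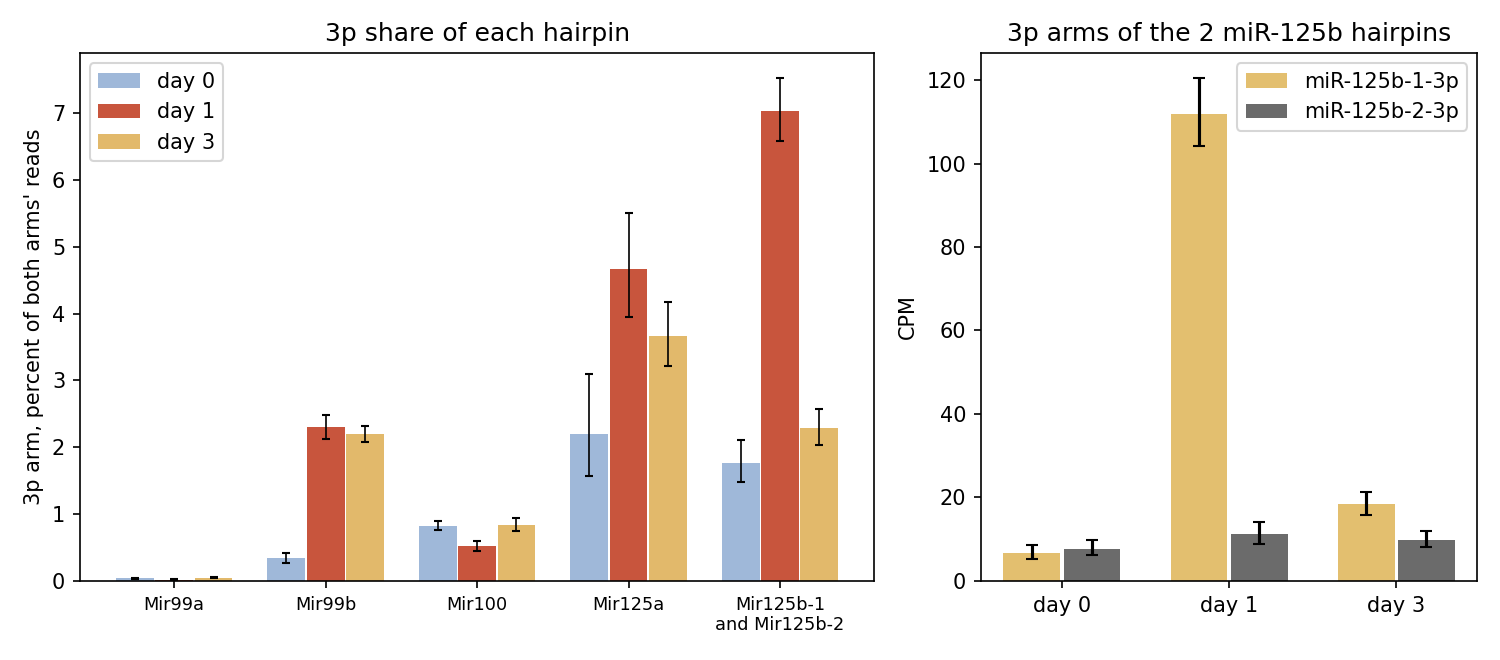
Left, the 3p arm as a percent of both arms' reads for each hairpin in each library (miR-125b-5p cannot be divided between its 2 hairpins, so these are pooled). Right, CPM of the 3p arms of the 2 miR-125b hairpins. Bars carry 95% Wilson intervals. The 3p share of miR-125b was 7.04% on day 1 against 1.77% on day 0, and the day 1 value of miR-125b-1-3p (112.0 CPM) was the only one far above the other bars in the right panel.

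Arm use, compared within a library, differed between days and between hairpins. The 3p arm made up 0.337% of the reads of Mir99b (0.274% to 0.415%) in the day 0 library, 2.30% (2.12% to 2.49%) in the day 1 library and 2.20% (2.08% to 2.33%) in the day 3 library. For Mir125a these shares were 2.21% (1.57% to 3.10%), 4.67% (3.95% to 5.51%) and 3.66% (3.22% to 4.17%). For miR-125b, with both hairpins pooled, they were 1.77% (1.48% to 2.11%), 7.04% (6.58% to 7.52%) and 2.29% (2.04% to 2.57%). In these 3 cases the 3p share was higher on day 1 than on day 0, with intervals that did not overlap. For miR-125b the higher day 1 share came from miR-125b-1-3p (57, 719 and 180 reads) rather than miR-125b-2-3p (66, 72 and 97 reads). In that pooled share, arm use and the part of each hairpin cannot be told apart.

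Mir100 and Mir99a went the other way on day 1. The 3p share of Mir100 was 0.825% (0.759% to 0.897%) in the day 0 library, 0.516% (0.443% to 0.600%) in the day 1 library and 0.842% (0.751% to 0.945%) in the day 3 library. That of Mir99a was 0.0389% (0.0310% to 0.0486%), 0.0211% (0.0146% to 0.0305%) and 0.0488% (0.0397% to 0.0601%), and 0.0851%, 0.0365% and 0.0984% in the deposited expression. miR-99a-3p and miR-99b-3p share the seed AAGCUCG. They had 76 and 88 reads on day 0, but 28 and 578 on day 1, and 89 and 1253 on day 3. The seed was therefore carried about equally by both arms on day 0, where the interval of their ratio (0.635 to 1.17) included 1, and mainly by miR-99b-3p after injury.

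Of 8 other mature miRNAs from the same hairpins or from the let-7 hairpins between them, 2 were at least 2-fold higher and 2 at least 2-fold lower on day 1, and 5 were higher and 1 was lower on day 3, where 53.8% and 10.9% of all miRNAs were higher and lower on day 1 and 57.3% and 10.3% on day 3. These counts depended on the scaling, and the day 1 log2 fold changes of the 2 higher ones, let-7c-5p (1.12) and let-7e-3p (1.38), were as low as 0.081 and 0.34 under the alternatives. The median of the 8 was a log2 fold change of 0.62 for day 1 and of 1.41 for day 3, beside 1.20 and 1.44 for all miRNAs. On chromosome 17, both arms of let-7e were higher in CPM in the injured libraries, like the members on either side of them, though let-7e-5p on day 1 was at -0.075 under median-of-ratios factors. let-7e-5p had 653.4 CPM in the day 0 library, 1277 CPM in the day 1 library and 2542 CPM in the day 3 library. let-7e-3p had 26.7, 69.5 and 69.7 CPM. All 6 mature miRNAs of this cluster had log2 fold changes in CPM above 0 on both days, from 0.32 for miR-99b-5p on day 1 to 3.63 for miR-99b-3p on day 3, though those of miR-99b-5p and, on day 1, let-7e-5p turned with the scaling. Of all 513 miRNAs, 75.2% were above 0 on day 1 and 76.0% on day 3, and miR-99b-5p was below the median of all miRNAs on both days.

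The parts of the chromosome 17 cluster did not keep fixed proportions. There were 18.3 reads of miR-99b-5p for each read of miR-125a-5p (17.4 to 19.4) in the day 0 library, 9.13 (8.77 to 9.50) in the day 1 library and 9.62 (9.36 to 9.88) in the day 3 library. There were 4.68 reads of miR-99b-5p for each read of let-7e-5p in the day 0 library, 3.00 in the day 1 library and 2.24 in the day 3 library. The ratio of let-7e-5p to miR-125a-5p was nearer to constant, at 3.92 (3.70 to 4.15), 3.04 (2.91 to 3.18) and 4.30 (4.18 to 4.43).

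On chromosome 9, the members at the ends of the cluster differed in direction. miR-100-5p was lower on both days, as was its minor arm miR-100-3p, with 64.2 CPM in the day 0 library, 25.7 CPM in the day 1 library and 29.2 CPM in the day 3 library. miR-125b-1-3p was higher on both days. let-7a-2-3p, from the hairpin between them, had 30, 17 and 21 reads, and the intervals of its fold changes included no difference on either day. let-7a-5p also matches Mirlet7a-1 outside the cluster and was not assigned to a locus. Its direction on day 1 turned under 3 of 7 alternatives. It had 10654 CPM in the day 0 library, 17499 CPM in the day 1 library and 28914 CPM in the day 3 library.

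On chromosome 16, miR-99a-5p was slightly lower in CPM, though past 2-fold lower with TMM and median-of-ratios factors. Its minor arm miR-99a-3p had 76, 28 and 89 reads. The log2 fold change of this arm was -1.03 (-1.66 to -0.41) on day 1 and 0.024 (-0.42 to 0.47) on day 3. miR-125b-2-3p differed little in CPM, while let-7c-1-3p, from the hairpin between Mir99a and Mir125b-2, had 24, 26 and 112 reads. The log2 fold change of let-7c-1-3p was 0.52 (-0.28 to 1.32) on day 1 and 2.02 (1.38 to 2.65) on day 3. let-7c-5p, which comes from this hairpin and from Mirlet7c-2 on chromosome 15, had 11273, 24541 and 35220 CPM. There were 0.491 reads of let-7c-5p for each read of miR-99a-5p on day 0 and 1.89 on day 3.

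**Figure D4:**
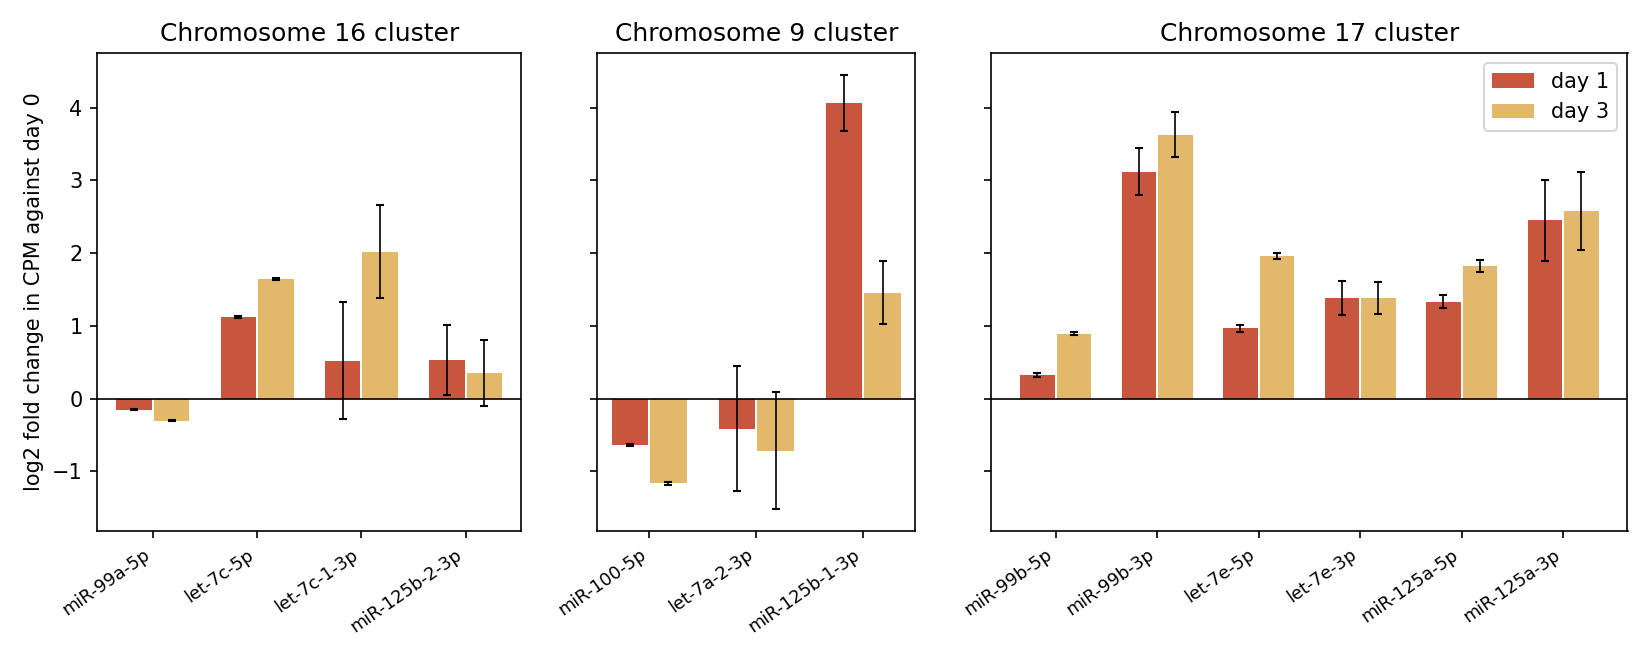
Log2 fold change in CPM against day 0 of the mature miRNAs of each cluster, in the order of their hairpins on the plus strand, with 95% Wald intervals. let-7c-5p also comes from a hairpin outside the cluster, and the arms miR-99a-3p and miR-100-3p, as well as miR-125b-5p and let-7a-5p, are not drawn. With total scaling, the 6 pairs of bars of chromosome 17 lie above 0, as did 75.2% of all miRNAs on day 1 and 76.0% on day 3. The value of miR-99b-5p turned below 0 on day 1 under 6 of 7 alternatives and on day 3 under 2 of 7, and that of let-7e-5p on day 1 under 1 of 7. Among the bars drawn, chromosome 9 holds both the lowest (miR-100-5p, -1.17) and the highest (miR-125b-1-3p, 4.06) values.

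Adding miR-351-5p, which comes from the X chromosome, the seed CCCUGAG was carried by 984.4 CPM in the day 0 library, 2120 CPM in the day 1 library and 2521 CPM in the day 3 library. miR-351-5p had 124, 466 and 7070 reads and made up 1.48% of the reads of this seed (1.24% to 1.76%) in the day 0 library, 3.42% (3.13% to 3.74%) in the day 1 library and 28.6% (28.1% to 29.2%) in the day 3 library. miR-125b-5p made up 81.6%, 76.8% and 47.9% over the same days. miR-10a-5p and miR-10b-5p are relatives of the miR-99/100 family whose seed, ACCCUGU, differs. miR-10a-5p had 2921, 8343 and 3194 CPM, and miR-10b-5p 2656, 5014 and 2622 CPM, both highest in CPM on day 1 (the day 1 change of miR-10b-5p turned below 0 under 2 of 7 alternatives) and unlike miR-99a-5p and miR-100-5p, which were highest on day 0.

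Likeness to the family totals was measured as the Euclidean distance between pairs of log2 fold changes (day 1 and day 3) over 147 other miRNAs with a mean of at least 100 CPM. With 3 libraries, a small distance is a description only. Nearest to the miR-99/100 family were miR-154-5p (distance 0.23), miR-185-5p (0.27) and miR-128-3p (0.35). Nearest to the miR-125 family were miR-191-5p (0.18), let-7g-5p (0.22) and miR-3074-2-3p (0.25). miR-191-5p had 6886 CPM in the day 0 library, 15851 CPM in the day 1 library and 11441 CPM in the day 3 library, and like the miR-125 family it was highest in CPM on day 1.

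**Figure D5:**
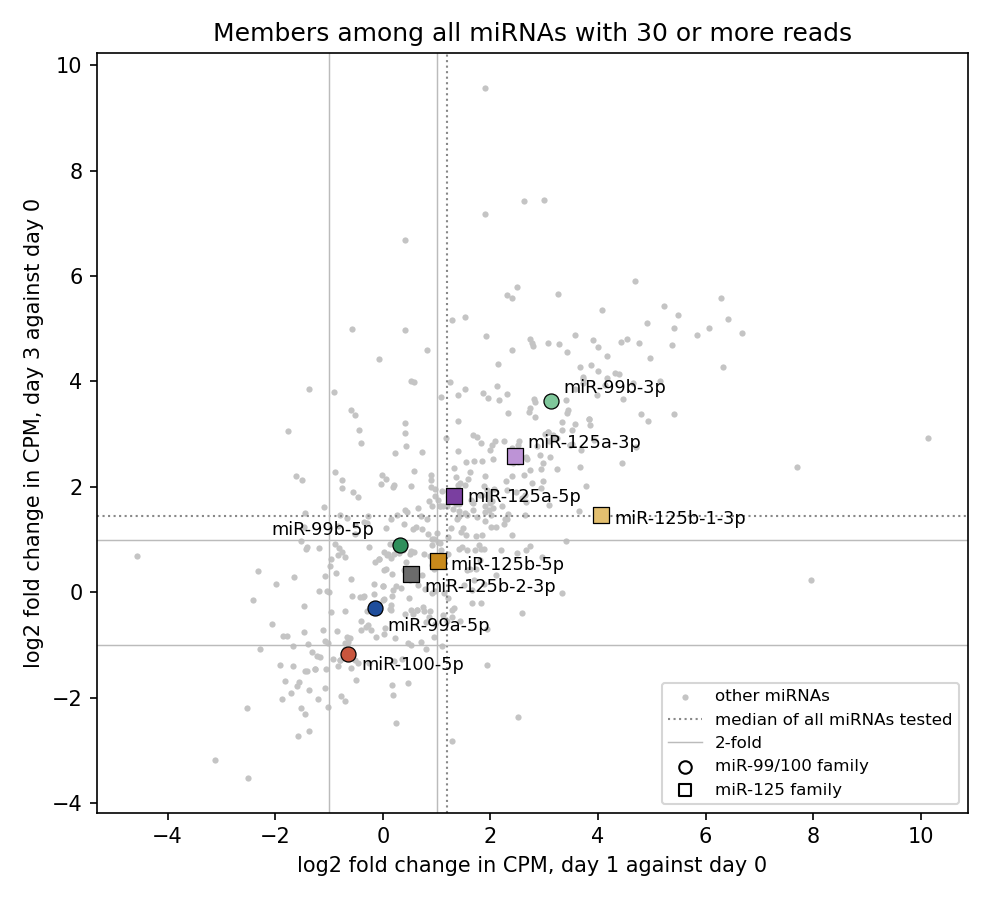
Log2 fold change in CPM on day 1 (x axis) and day 3 (y axis) against day 0 for the members and the other miRNAs with at least 30 reads over the 3 libraries and reads in each (496 drawn, members included). Dotted lines are the medians over all 513 tested and thin lines mark 2-fold. miR-125a-5p and the 3p members other than miR-125b-2-3p lie to the right of the dotted line at 1.20, and miR-99a-5p and miR-100-5p lie below 0 on both axes.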

How the data were processed

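Small RNA libraries of TA muscle from WT mice on days 0, 1 and 3 after CTX injury, 1 per time point with 4 samples pooled in each, were sequenced on the BGISEQ platform. The authors deposited read counts per mature miRNA without normalization, and the submitters' processing notes name HISAT, Bowtie2 and GRCm38.p6. A second deposited column, an expression value of unstated origin, was handled as a score and served as an alternative. It never exceeded the read count.

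Counts were divided by library totals to give CPM. With 1 library per time point no test was made. The 2-fold threshold of the study's methods was applied to miRNAs with at least 30 reads summed over the 3 libraries. The false discovery rate cutoff that those methods also require was left out, so the counts are not those of the study's criterion. The members and lists were chosen with earlier results of these data known. The miRNAs named were the 9 members, their cluster neighbours, miRNAs of the same or a similar seed, marker lists and the 3 nearest patterns per family. Alternatives were edgeR TMM factors, DESeq2 median-of-ratios factors, totals without 10 abundant miRNAs (each library's own or, settled after those values were seen, the same 10 in every library), the deposited expression (scaled or not), a pseudocount of 1 CPM, fold thresholds of 1.5 and 4, and other read minimums. The fold code was run on simulated reads drawn independently, which checks the code but not how well the intervals hold for these libraries. A count of 3 reads, taken as the floor, was 0.353, 0.467 and 0.306 CPM on days 0, 1 and 3. Sequences and positions came from RefSeq and host genes from GENCODE M21, both on GRCm38. Among the 953 of 1138 listed miRNAs matched to a RefSeq mature sequence, 3 sequences stood under more than 1 name, with equal counts under each. The tools were edgeR 4.0.16 and DESeq2 1.42.0 under R 4.3.3, and pandas 2.3.3, numpy 2.4.6 and matplotlib 3.10.9 under Python 3.11.15.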

Additional observations from a re-analysis of the deposited data

How the results depend on the processing

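With 1 library per time point, no library could be left out. No paired analysis was possible because each group held 1 library. The ratio of the miR-99/100 family to the miR-125 family was lower on days 1 and 3 than on day 0 in the deposited expression values, with 5p arms alone and without the most abundant member of each family. It was 19.6, 9.33 and 9.40 on days 0, 1 and 3 in the deposited expression, 58.3, 15.8 and 14.4 without those members, and 14.4 and 15.4 on days 1 and 3 with 5p arms alone. Each scaling moved all fold changes of a day by 1 amount. The shift was -0.94 and -0.93 (days 1 and 3) for TMM, -1.04 and -1.12 for median-of-ratios, and -0.62 and -0.51 for totals that leave out the 10 miRNAs of highest mean CPM. Leaving out each library's own 10 gave -0.83 and -0.74. This form was computed first, and the use of the same 10 in every library was settled after its values had been seen.

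For the miR-99/100 family, log2 fold changes on days 1 and 3 were -1.14 and -1.20 by TMM, -1.23 and -1.40 by median-of-ratios, -0.81 and -0.79 without the shared 10, -1.02 and -1.01 without each library's own 10, -0.55 and -0.49 in scaled deposited expression, -0.33 and 0.020 in unscaled, and -0.28 and -0.22 without miR-99a-5p. In the same order, those of the miR-125 family were 0.20 and -0.022, 0.11 and -0.21, 0.53 and 0.40, 0.32 and 0.17, 0.52 and 0.57, 0.74 and 1.08, and 1.61 and 1.79 without miR-125b-5p. A pseudocount of 1 CPM left both within their intervals. The direction of miR-125b-5p on day 1 was reversed by median-of-ratios (-0.023).

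Members at least 2-fold higher on day 1 numbered 3 in place of 5 under each scaling, in both forms of the deposited expression and at a fold threshold of 4. On day 3, 2 in place of 4 were higher by TMM, by median-of-ratios and at a threshold of 4, 3 without either set of 10 and 6 at a threshold of 1.5. On day 1, 2 members (miR-99a-5p and miR-100-5p) were lower in place of 0 by TMM and median-of-ratios, and 1 without the shared 10, without each library's own 10, in scaled deposited expression and at a threshold of 1.5. On day 3, 2 in place of 1 were lower by TMM, by median-of-ratios and without each library's own 10, and 0 in unscaled deposited expression or at a threshold of 4. Of all miRNAs, the 276 higher and 56 lower on day 1 (83.1% of those called were higher) became 173 and 125 (58.1%) by TMM, 162 and 134 (54.7%) by median-of-ratios, 212 and 106 (66.7%) without the shared 10, 190 and 117 (61.9%) without each library's own 10, 204 and 103 (66.4%) in scaled deposited expression, 229 and 83 (73.4%) in unscaled, 166 and 8 at a threshold of 4, 316 and 90 at 1.5, 151 and 32 with at least 300 reads, and 551 and 165 with at least 1 read. On day 3, 294 and 53 (84.7%) became, in that order, 202 and 118 (63.1%), 183 and 131 (58.3%), 248 and 84 (74.7%), 217 and 104 (67.6%), 263 and 72 (78.5%), 314 and 40 (88.7%), 194 and 14, 348 and 80, 161 and 34, and 630 and 157. Members with few reads on day 0, such as miR-125a-3p with 32, have wide intervals.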

Other observations

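The deposited expression value of miR-99a-5p was 45.6% of its read count on day 0, 57.7% on day 1 and 49.0% on day 3. For miR-100-5p it was 70.3%, 84.0% and 82.6%, and for miR-99b-5p 85.1%, 87.4% and 74.5%. For miR-99b-3p, the remaining member of the miR-99/100 family, it was 98.9%, 99.0% and 98.7%. For the 5 members of the miR-125 family it was between 92.9% and 100.0% in the 3 libraries. The percentage went with abundance, since in each library a member with more reads had an equal or lower one. In the deposited values the miR-99/100 family therefore counted for less relative to the miR-125 family than in the reads.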
